A study of Homo sapiens with 12 samples.

Results

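miR-205-5p (hsa-miR-205-5p) and miR-203a-3p (hsa-miR-203a-3p) are human microRNAs (miRNAs) best known from stratified epithelia such as the epidermis. They were chosen by name, with earlier results of these data known, so their p-values and ranks are not those of a blind choice. They are 2 of the 1636 mature miRNAs in a count table of extracellular vesicles, and both were among the 318 miRNAs tested. The vesicles are membrane-bound particles shed into the culture medium by 6 cell lines, all labelled as colorectal cancer: Car-1, SW1116, Hutu80, HT55, RCM-1 and MDST8. No label gives a genetic change or a treatment, and Hutu80 is generally described as a line of duodenal origin. Each line had 2 libraries, 12 in all. Every line grew in the same serum-containing medium, and vesicles were separated by ultrafiltration and size-exclusion chromatography before the RNA was sequenced with a low-input small RNA protocol. The series speaks of 3 lines of consensus molecular subtype 2 and 3 of subtype 4. No label used here ties a line to a subtype, so the lines were compared with each other. A line is 1 model, and nothing in the labels says that its 2 libraries came from separate cultures. The p-values therefore rest on differences between libraries of a line, and those may be technical alone.

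A miRNA is cut from a hairpin precursor, and 1 of the hairpin's arms is usually kept. Bases 2 to 8 of the kept strand, the seed, pair with messenger RNAs and lower their output. miR-205 is abundant in basal cells of squamous and glandular epithelia, and with the miR-200 family it represses ZEB1 and ZEB2, transcription factors that switch off epithelial genes. miR-203 is a miRNA of the differentiating layers of the epidermis, where work in mouse skin showed that it represses p63, the factor that keeps basal keratinocytes proliferating. Neither is a defining miRNA of the gut lining, which is marked by miR-192, miR-194, miR-215 and miR-375.

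The mature strands are shown because they are what the counts refer to; capitals mark the seed, and the sequences are those of RefSeq on GRCh38.p14. All 6 mature names of the 3 hairpins matched the RefSeq table.
miR-205-5p: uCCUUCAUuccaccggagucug
miR-203a-3p: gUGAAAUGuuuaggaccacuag
Both are 22 bases long, and the G and C share was 54.5% in miR-205-5p and 40.9% in miR-203a-3p. Their seeds differ, and 0 others of the 2370 mature names listed by RefSeq carried CCUUCAU and 0 others carried UGAAAUG at bases 2 to 8. Neither miRNA therefore has a seed relative among those names. Whether reads of other miRNAs were assigned to either was not tested.

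The hairpins show which arm was counted; capitals mark miR-205-5p on the 5' arm of the first and miR-203a-3p on the 3' arm of the second.
MIR205: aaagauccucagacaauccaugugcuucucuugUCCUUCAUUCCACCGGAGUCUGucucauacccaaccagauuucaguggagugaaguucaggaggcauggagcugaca
MIR203A: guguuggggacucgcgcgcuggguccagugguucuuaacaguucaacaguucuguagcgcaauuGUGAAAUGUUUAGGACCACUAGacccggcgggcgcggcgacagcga
MIR205 lies at chr1:209432133-209432242 on the plus strand, inside the non-coding gene MIR205HG. The mature miR-205-5p occupies chr1:209432166-209432187. In GENCODE release 29, 8 MIR205HG transcripts span the hairpin, and 7 of them have an exon that starts inside it, at position 209432204. No MIR205HG exon overlaps miR-205-5p itself, which is intronic there. MIR203A lies at chr14:104117405-104117514 on the plus strand, with miR-203a-3p at chr14:104117469-104117490. It is in no other gene on its own strand, and the nearest is the protein-coding gene ASPG, 1824 bases away. MIR203B runs across the same place on the minus strand.

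The shallowest library, Hutu80 replicate 1, held 71831 counts, and the deepest, SW1116 replicate 1, held 622800. Dividing by the library total per 1000000 gives CPM, in which a single count was worth 13.9 in the shallowest library and 1.61 in the deepest. The unit scaled CPM uses library totals corrected by trimmed-mean (TMM) factors. Differences between lines are log2 values, each with a standard error (SE). The defining gut miRNAs were measured in every line. The summed level of miR-192-5p, miR-194-5p, miR-215-5p and miR-375-3p was 27743 ± 520 scaled CPM for RCM-1, 15523 ± 3228 for SW1116, 14010 ± 342 for HT55, 2190 ± 333 for Car-1, 2089 ± 32.0 for Hutu80 and 1174 ± 212 for MDST8 (SD, n = 2 each). In bulk vesicle RNA, fewer vesicles that hold a miRNA and fewer copies in each cannot be told apart.

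miR-205-5p stood high in Car-1 vesicles. Its counts there were 1354 and 543, or 5502 and 2715 scaled CPM, which made up 0.784% (95% Wilson interval 0.743% to 0.826%) and 0.394% (0.362% to 0.429%) of all counts. SW1116 came next with 228 and 232 counts, or 509 and 727 scaled CPM. By count, miR-205-5p was the 21st and 37th miRNA in rank in the Car-1 libraries and the 91st and 78th in the SW1116 libraries.

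In the other 4 lines miR-205-5p rested on few counts. Hutu80 had 11 and 15 counts, or 120 and 126 scaled CPM. HT55 had 9 and 33 counts, or 78.2 and 153 scaled CPM. These lines overlapped, since both Hutu80 libraries lay between the HT55 libraries. RCM-1 had 10 and 16 counts, or 65.4 and 47.3 scaled CPM. MDST8 had 16 and 10 counts, or 50.8 and 31.4 scaled CPM. The lines RCM-1 and MDST8 overlapped too, and every library of these 4 lines was below every library of SW1116 and Car-1. Intervals on counts cover counting error only. In MDST8 replicate 2 the share was 0.00326% (95% Wilson interval 0.00177% to 0.00600%), so its bounds differ by more than the 2 library values of that line.

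miR-203a-3p split the lines differently. In RCM-1 it had 859 and 1739 counts, or 5615 and 5142 scaled CPM. In HT55 it had 708 and 918 counts, or 6149 and 4268 scaled CPM. In SW1116 it had 2476 and 1443 counts, or 5529 and 4523 scaled CPM. These 3 lines overlapped with each other, and miR-203a-3p ranked between 22nd and 29th by count in their 6 libraries. Car-1 had 153 and 139 counts, or 622 and 695 scaled CPM. Hutu80 had 30 and 47 counts, or 328 and 395 scaled CPM. MDST8 had 85 and 55 counts, or 270 and 173 scaled CPM. The 3 lower lines did not overlap with each other or with the 3 higher ones. The lowest rank of miR-203a-3p in any library was the 134th, in MDST8 replicate 2.

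**Figure D1:**
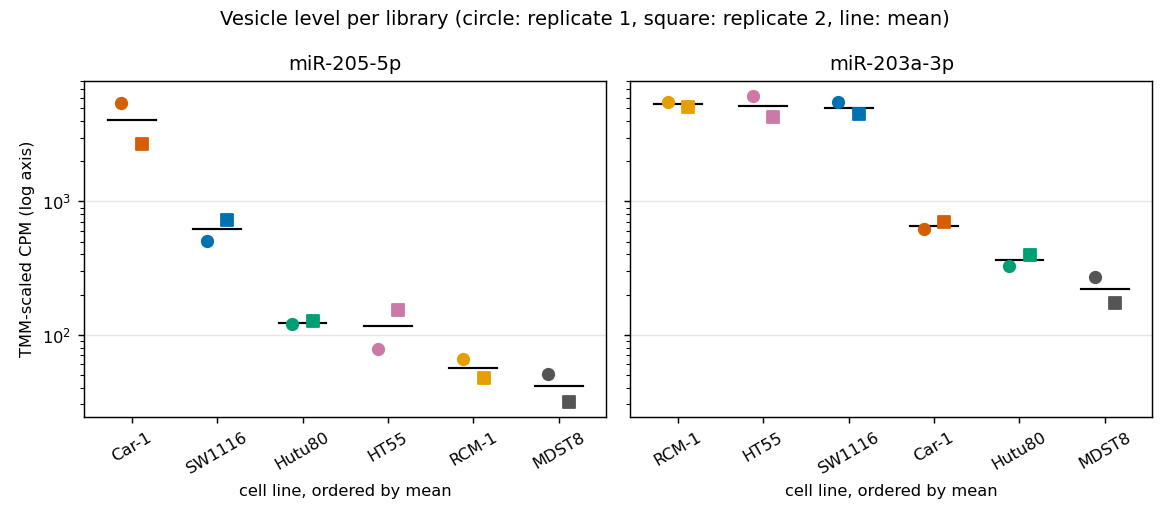
Vesicle level of miR-205-5p (left) and miR-203a-3p (right) in TMM-scaled CPM on a log axis, with lines ordered by their mean. Each point is 1 library and each bar the mean of 2; Car-1 stands alone at the top for miR-205-5p, with 5502 and 2715 scaled CPM, while RCM-1, HT55 and SW1116 share the top for miR-203a-3p.

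The first comparison asked whether each miRNA differed among the 6 lines. Both passed edgeR's quasi-likelihood F-test across the lines, with Benjamini-Hochberg adjusted p = 1.22e-12 for miR-205-5p and 2.23e-12 for miR-203a-3p. That test called 68.2% of the 318 miRNAs, so passing it does not set them apart. They stood 4th and 8th of all by p-value, which describes miRNAs that were chosen with earlier results of these data known. On the log2(scaled CPM + 1) scale the line means of miR-205-5p spanned 6.61, with Car-1 at the top and MDST8 at the bottom. Those of miR-203a-3p spanned 4.60, with RCM-1 at the top and MDST8 at the bottom, a 24.3-fold ratio of means. The median range over all tested miRNAs was 2.54, and 19 miRNAs had a larger range than miR-205-5p and 68 a larger one than miR-203a-3p.

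The lines were then compared pair by pair in the same fit. miR-205-5p passed in 11 of 15 pairs and miR-203a-3p in 10 of 15. In single pairs the test called between 13.5% and 44% of all miRNAs: HT55 against Car-1 28.9%, HT55 against MDST8 39.6%, HT55 against SW1116 20.4%, HT55 against Hutu80 30.8%, HT55 against RCM-1 13.5%, Car-1 against MDST8 41.5%, Car-1 against SW1116 39.3%, Car-1 against Hutu80 18.2%, Car-1 against RCM-1 42.1%, MDST8 against SW1116 34.9%, MDST8 against Hutu80 43.1%, MDST8 against RCM-1 42.1%, SW1116 against Hutu80 44%, SW1116 against RCM-1 13.5% and Hutu80 against RCM-1 41.2%.

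Down the order of levels, 2 steps between neighbouring lines passed the test for miR-205-5p. Car-1 averaged 4109 ± 1971 scaled CPM and SW1116 618 ± 154 (SD, n = 2 each), a difference of 2.73 ± 0.40 (SE; edgeR adjusted p = 7.49e-06). Without Car-1 replicate 1 it was 2.07 (adjusted p = 0.000156), the lower Car-1 library then standing alone, and with library totals in place of TMM it was 3.83. SW1116 was in turn 2.32 ± 0.46 above Hutu80, which averaged 123 ± 3.99 scaled CPM (adjusted p = 0.000199), or 1.45 with library totals (0.0093). The 3 remaining steps did not pass. Hutu80 was 0.03 ± 0.50 above HT55, which averaged 116 ± 53.2 (adjusted p = 0.976). HT55 was 1.14 ± 0.50 above RCM-1, which averaged 56.3 ± 12.8 (adjusted p = 0.137). RCM-1 was 0.40 ± 0.53 above MDST8, which averaged 41.1 ± 13.7 (adjusted p = 0.634).

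Car-1 was above each of the other 5 lines for miR-205-5p, by up to 6.63 ± 0.50 over MDST8 (edgeR adjusted p = 5.36e-10) and 5.92 in that pair without Car-1 replicate 1. SW1116 was above each of the 4 lines below it, the difference over MDST8 being 3.89 ± 0.46 (adjusted p = 2.48e-07) and that over HT55 2.35 ± 0.44 (0.000309), or 3.00 without HT55 replicate 2. Among the 4 low lines, 2 pairs passed and neither was stable. HT55 was 1.54 ± 0.50 above MDST8 (adjusted p = 0.0145), a call that ended without HT55 replicate 2 (0.311) or MDST8 replicate 2 (0.107). Hutu80 was 1.57 ± 0.53 above MDST8 (adjusted p = 0.0212), a call that ended without Car-1 replicate 1 or 2 (0.0728 each), MDST8 replicate 2 (0.152) or Hutu80 replicate 1 (0.136) or 2 (0.174). Both pairs rest on 42 and 26 summed counts of miR-205-5p set against 26 in MDST8.

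For miR-203a-3p 1 step between neighbouring lines passed the test. RCM-1 averaged 5378 ± 334 scaled CPM, HT55 5209 ± 1330 and SW1116 5026 ± 711 (SD, n = 2 each). RCM-1 was 0.05 ± 0.29 above HT55 (SE; edgeR adjusted p = 0.946), HT55 0.05 ± 0.29 above SW1116 (0.924) and RCM-1 0.10 ± 0.29 above SW1116 (0.943). SW1116 was 2.93 ± 0.32 above Car-1, which averaged 658 ± 51.8 (adjusted p = 1.11e-07), or 1.85 with library totals. Below that step, Car-1 was 0.86 ± 0.33 above Hutu80, which averaged 361 ± 47.1 (adjusted p = 0.0774), and Hutu80 0.71 ± 0.34 above MDST8, which averaged 221 ± 68.7 (0.0921). Neither passed in this fit. The libraries of these lines did not overlap, but for 2 libraries against 2 that alone gives an exact permutation p of 0.333. Car-1 was 1.57 ± 0.32 above MDST8 (edgeR adjusted p = 0.000378). The difference of Car-1 over Hutu80 passed without HT55 replicate 2 (1.17, adjusted p = 0.0134) and without Car-1 replicate 1 (1.22, 0.0192). All 9 pairs of a higher with a lower line passed, with differences from 2.93 for SW1116 over Car-1 to 4.60 ± 0.35 for RCM-1 over MDST8 (adjusted p = 9.69e-11). Leaving out HT55 replicate 2 moved the difference of HT55 over Hutu80 to 4.48, against 3.84 ± 0.34 with it.

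**Figure D2:**
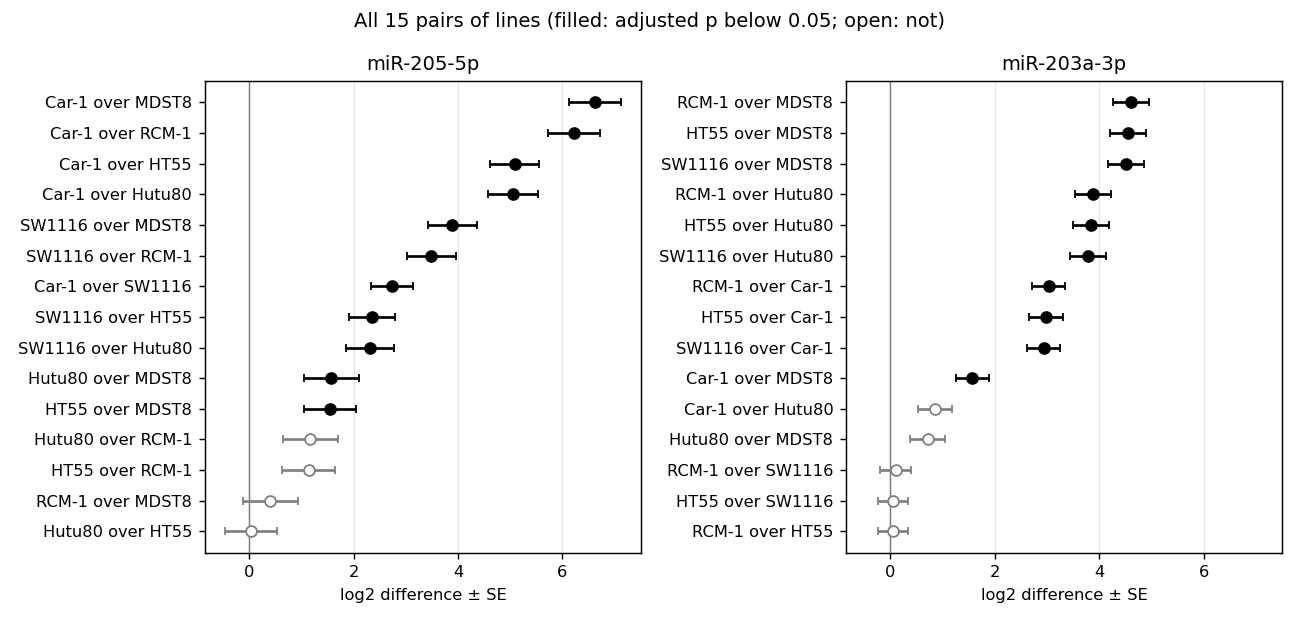
Log2 difference with its SE for all 15 pairs of lines, the line with the higher mean named first, for miR-205-5p (left) and miR-203a-3p (right). Filled points passed an adjusted p of 0.05 (11 and 10 pairs); the differences reach 6.63 for miR-205-5p (Car-1 over MDST8) and 4.60 for miR-203a-3p (RCM-1 over MDST8).

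Set side by side, the miRNAs shared the bottom line, MDST8, and differed at the top. MDST8 was the lowest line for 89 of the 318 tested miRNAs, the most of any line, so a shared bottom there does not set the pair apart. Car-1 was first for miR-205-5p and 4th for miR-203a-3p. RCM-1 was first for miR-203a-3p and 5th for miR-205-5p. SW1116 was in the upper 3 for both. Over the 6 line means of log2(scaled CPM + 1), Pearson's r between the miRNAs was 0.02 and Spearman's rho 0.03. Without MDST8 and Hutu80, the lines farthest from the median of miR-203a-3p, r over the other 4 was -0.87, and without Car-1 r over 5 lines was 0.45. These values are descriptions of so few points, each a mean of 2 libraries in which both miRNAs were counted together.

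The balance between the miRNAs was then compared within each library, as the log2 of miR-205-5p over miR-203a-3p counts with 0.5 added to each. This measure does not depend on how libraries are scaled. It was 3.14 and 1.96 in Car-1, above every other library. It was -1.41 and -1.62 in Hutu80, -2.37 and -2.40 in MDST8 and -3.44 and -2.63 in SW1116. In HT55 it was -6.22 and -4.78, and in RCM-1 -6.36 and -6.72. As counts, miR-205-5p had 8.85 and 3.91 for each count of miR-203a-3p in Car-1, and miR-203a-3p had 85.9 and 109 for each count of miR-205-5p in RCM-1. Counts of different sequences are not calibrated to molecules, so the ratio is read between lines and not within one.

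Line means of this ratio ran from 2.55 ± 0.83 in Car-1 to -6.54 ± 0.26 in RCM-1 (SD, n = 2 each). An exact permutation test over all 10395 ways to put the 12 libraries into 6 pairs, with the ratio of variance between and within pairs as statistic, gave p = 9.62e-05, the smallest it can give. With any library left out the exact p was at most 0.00106. Between any single pair of lines, 2 libraries against 2 cannot give an exact p below 0.333, so no pair was tested on the ratio. Hutu80, MDST8 and SW1116 had adjoining ratios, although miR-203a-3p was 3.79 ± 0.34 higher in SW1116 than in Hutu80 (log2 difference ± SE; edgeR adjusted p = 5.41e-09).

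**Figure D3:**
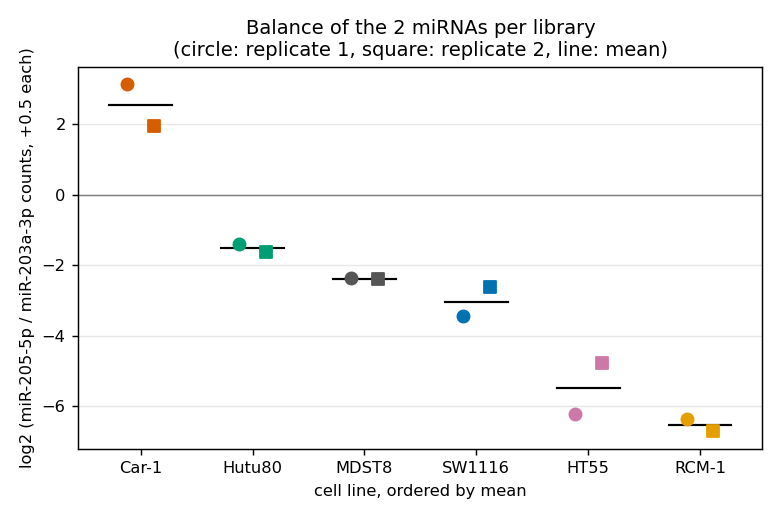
Log2 ratio of miR-205-5p to miR-203a-3p counts in each library, lines ordered by their mean, with a line at 0 for equal counts. The Car-1 libraries are highest, at 3.14 and 1.96, and the other 10 lie between -1.41 in Hutu80 and -6.72 in RCM-1.

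The other arm of MIR205 was nearly silent. miR-205-3p had 6 counts, all in Car-1 replicate 1, beside 1897 counts of miR-205-5p in Car-1, which is 0.315% of both arms (95% exact interval 0.116% to 0.685%). In SW1116 it had 0 beside 460, which allows up to 0.799%, and in the other 4 lines the 0 counts stood beside 26 to 42 counts of miR-205-5p, too few to show such a share. miR-203a-5p and miR-203b-5p were not analysed here. miR-203b-3p comes from the hairpin on the opposite strand and is shown because it shares 20 positions with miR-203a-5p in the opposite sense.
miR-203b-3p: uUGAACUGuuaagaaccacugga
It had 136 counts in all beside 8652 of miR-203a-3p. Its level was 96.6 ± 1.49 scaled CPM for HT55, 88.9 ± 33.2 for RCM-1 and 64.6 ± 6.13 for SW1116, the 3 lines with high miR-203a-3p (SD, n = 2 each). In Hutu80, Car-1 and MDST8 it had 2, 2 and 3 counts in all. It passed across the lines (edgeR adjusted p = 0.000602), and its share of both strands' counts lay between 0.680% in Car-1 and 2.53% in Hutu80, with exact intervals that overlap in all 6 lines.

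Other miRNAs linked to stratified epithelium and keratinocytes did not share 1 pattern. Of 11 listed, miR-205-5p and miR-203a-3p included, 10 were tested and 10 passed across the lines, where 68.2% of all miRNAs passed. The highest mean was in MDST8 for 6 of the 10, in SW1116 for 2 and in Car-1 and RCM-1 for 1 each, while MDST8 was the highest line for 21.1% of all tested miRNAs. miR-944, which lies within the gene for p63, had 3 counts in all, 1 in Car-1 replicate 1 and 1 in each SW1116 library. miR-149-5p averaged 239 ± 43.8 scaled CPM in SW1116 and 179 ± 97.5 in Car-1, the lines with most miR-205-5p. It averaged 46.1 ± 56.0 in RCM-1 (edgeR adjusted p = 0.016 across lines). For this miRNA 3 of 15 pairs of lines passed. Car-1 over RCM-1 did (edgeR adjusted p = 0.0492), while Car-1 over HT55 (0.065), MDST8 (0.146) and Hutu80 (0.282) did not. miR-184, a miRNA of the corneal epithelium, was highest in SW1116, at 264 ± 185 scaled CPM. Its Pearson's r with miR-203a-3p over the 6 line means was 0.96. It averaged 178 ± 11.5 for RCM-1 and 160 ± 167 for HT55, and was lowest in Hutu80 at 20.6 ± 17.3 (edgeR adjusted p = 0.0016 across lines). miR-31-5p, a miRNA of proliferating keratinocytes, was highest in MDST8 at 1642 ± 79.4 scaled CPM and lowest in HT55 at 149 ± 39.0 (2.13e-08). The same line was highest for miR-31-3p, for miR-125b-5p, a miRNA of mouse skin stem cells, for miR-24-3p, and for miR-34a-5p and miR-34c-5p, which p63 represses in keratinocytes. MDST8 was also the line with least miR-205-5p and miR-203a-3p, as it was the lowest line for 89 of the 318 tested miRNAs. No line was thus highest for most of the list and for both miRNAs, so squamous refers here to what is known of the pair and not to a profile of any line.

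The miR-200 family, which acts on the same ZEB targets as miR-205, varied with miR-203a-3p more closely than with miR-205-5p over these 6 lines. In the lines with high miR-203a-3p, miR-200c-3p averaged 92305 ± 17950 scaled CPM (HT55), 86297 ± 25165 (RCM-1) and 80348 ± 14865 (SW1116). The means of the other lines were 20149 ± 8570 (Car-1), 7295 ± 1040 (Hutu80) and 3604 ± 775 (MDST8). Pearson's r with miR-203a-3p over the 6 line means was between 0.83 and 0.99 for the 5 family members, and with miR-205-5p between 0.12 and 0.51. The gut list gave a like split: r with miR-203a-3p was 0.96 for miR-192-5p, 0.97 for miR-194-5p, 0.86 for miR-215-5p and 0.91 for miR-375-3p, and r with miR-205-5p lay between -0.29 and -0.11. All 5 and all 4 of these passed across the lines, as did 68.2% of all tested miRNAs. An r as high was not particular to these lists: let-7d-5p, in neither, had r = 0.99 with miR-203a-3p.

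**Figure D4:**
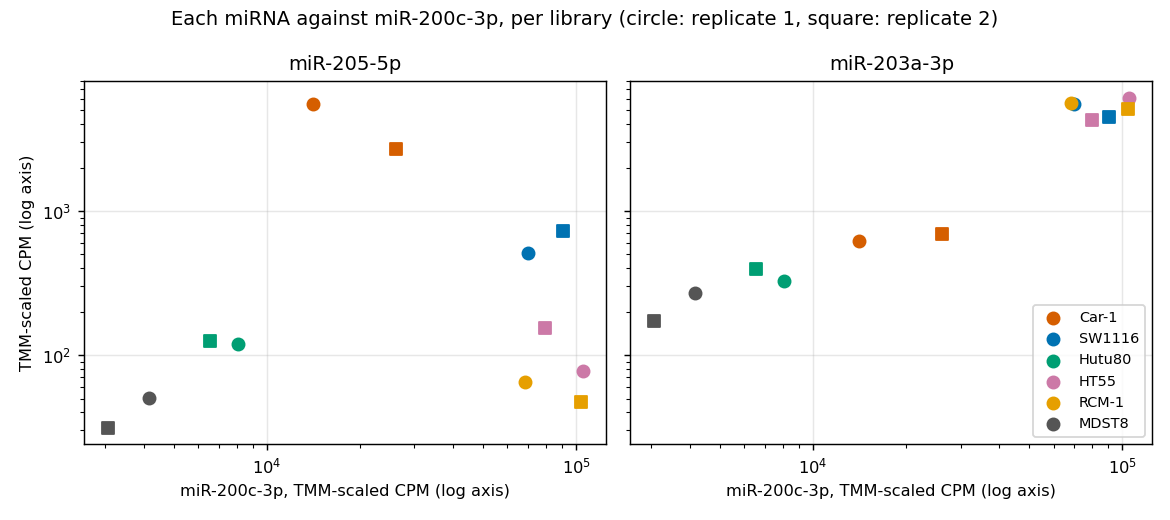
TMM-scaled CPM of miR-205-5p (left) and miR-203a-3p (right) against that of miR-200c-3p, both on log axes, 1 point per library. The order of miR-203a-3p follows that of miR-200c-3p from MDST8 through Hutu80 and Car-1 to the other lines, while for miR-205-5p the Car-1 libraries stand above the rest at a middle level of miR-200c-3p.

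**Figure D5:**
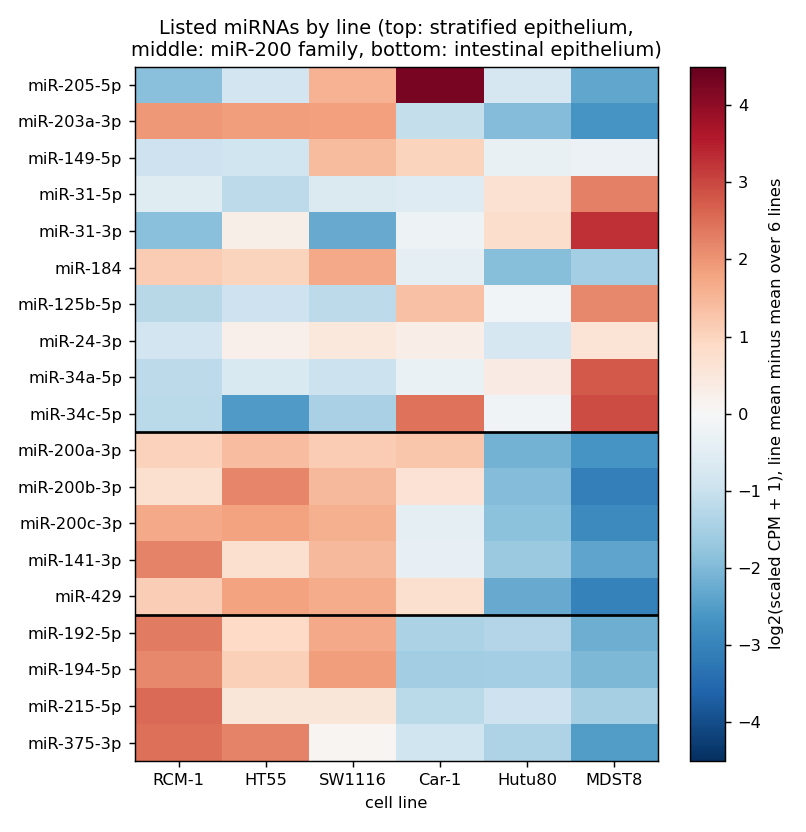
Tested miRNAs of the stratified epithelium list (top), the miR-200 family (middle) and the gut list (bottom); colour is the line mean of log2(scaled CPM + 1) minus its mean over the 6 lines. miR-203a-3p resembles the lower blocks, with RCM-1, HT55 and SW1116 high, as does miR-184 of the top block. miR-205-5p is highest in Car-1, where miR-203a-3p is below its mean.

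A search over 260 miRNAs named those whose line means were most like each of the pair. For miR-203a-3p they were miR-452-5p (r = 0.99 over 6 lines), miR-200c-3p (0.99), let-7d-5p (0.99), miR-224-5p (0.97) and miR-194-5p (0.97). miR-224-5p was at 10433 ± 667 scaled CPM in RCM-1 and 433 ± 133 in MDST8. The least alike were miR-30a-5p (-0.95), miR-221-5p (-0.95) and miR-125b-2-3p (-0.93). miR-221-5p was at 3083 ± 54.8 scaled CPM in MDST8 and 223 ± 26.7 in RCM-1, the reverse order of lines in all 6 (Spearman's rho = -1).

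For miR-205-5p the most alike were miR-27b-3p (r = 0.91), miR-934 (0.91), miR-362-5p (0.86), miR-23b-3p (0.85) and miR-10527-5p (0.83). miR-27b-3p and miR-23b-3p, both encoded on chromosome 9, were at 3762 ± 1502 and 4444 ± 1125 scaled CPM in Car-1. In MDST8 they were at 1087 ± 254 and 1129 ± 91.2. HT55, a line low in miR-205-5p, had 3158 ± 53.7 scaled CPM of miR-23b-3p, against 2930 ± 556 in SW1116. miR-934, encoded on the X chromosome, was at 196 ± 72.8 scaled CPM in Car-1 and 23.4 ± 33.2 in SW1116, with at most 4.34 in the other 4 lines. It passed across the lines (edgeR adjusted p = 8.23e-05), and miR-362-5p did not (0.816). The least alike were miR-378c (-0.96), miR-378a-3p (-0.93) and miR-106b-3p (-0.91). Of these miR-378a-3p passed across the lines (edgeR adjusted p = 0.00102), while miR-378c (0.107) and miR-106b-3p (0.0778) did not. With 6 points and 260 candidates, such values describe these lines only.

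Markers of other sources were present in every line, and their summed levels did not order the lines as either miRNA did. The 5 listed blood and serum miRNAs summed to 4127 ± 457 scaled CPM in Car-1, 2023 ± 490 in SW1116, 3893 ± 636 in Hutu80, 5680 ± 294 in HT55, 2897 ± 589 in RCM-1 and 1969 ± 310 in MDST8 (SD, n = 2 each). HT55 had the highest sum and Car-1 the next. Of the 5, 2 passed across the lines, where 68.2% of all tested miRNAs passed. They were miR-486-5p, a red cell miRNA, and miR-150-5p, a lymphocyte miRNA. miR-486-5p was highest in HT55 at 4428 ± 456 scaled CPM and lowest in MDST8 at 1322 ± 231. miR-150-5p was highest in RCM-1 at 651 ± 116 scaled CPM, with 149 ± 39.0 for HT55, and lowest in MDST8 at 56.9 ± 22.8. RCM-1 and MDST8 were thus also the highest and lowest lines of miR-203a-3p. SW1116, a line high in miR-203a-3p, was at 73.6 ± 15.6 scaled CPM of miR-150-5p, below Car-1 at 117 ± 10.8. Pearson's r of miR-150-5p with miR-203a-3p over the 6 line means was 0.57. A part of miR-150-5p's source in the miR-203a-3p result was not tested. The 5 stromal miRNAs summed to 152 ± 37.7 scaled CPM in SW1116 at the lowest and 367 ± 68.3 in Hutu80 at the highest. Of them miR-214-3p had 3 counts in all and was at 0 in 4 lines, and miR-143-3p alone passed of the 2 tested, against the same 68.2% of all miRNAs. Whether serum in the medium contributed to either miRNA was not tested.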

How the data were processed

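Small RNA from vesicles of 6 cell lines was measured in 2 libraries per line. The values tested are raw counts per mature miRNA, deposited by the authors without normalisation. The authors also deposited log2 values, which equal log2(CPM + 1) of these counts (largest difference 5e-14). The libraries carry unique molecular identifiers, per the labels' protocols. Whether these were collapsed, and which aligner and annotation served, is not given in the sources used here. Per the submitters' processing notes the genome was hg38; sequences and coordinates come from RefSeq (GRCh38.p14) and GENCODE release 29 on the same assembly.

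The edgeR function filterByExpr (edgeR 4.0.16, limma 3.58.1, R 4.3.3) kept 318 of 1636 miRNAs, with 99.7% of all counts. TMM factors ran from 0.641 to 1.46. All libraries entered 1 quasi-likelihood fit (robust) with a mean per line; Benjamini-Hochberg adjustment ran over all tested miRNAs in each comparison, at 0.05. The SE is the difference over the square root of F. Replicates of every line differed beyond sampling noise (chi-square per degree of freedom 8.10 to 51.2). The ratio test used Python 3.11.15.

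Named were both miRNAs, the members of 6 lists, any miRNA sharing a seed with either, and, among those reaching 100 scaled CPM in a line, the 5 most and 3 least alike by Pearson's r over line means. Both miRNAs and the lists were chosen with earlier results of these data known. Alternatives were RLE factors, library totals, no filter, 10 CPM in 2 libraries, DESeq2 (1.42.0), limma-voom, a limma-trend fit of the deposited log2 values, a replicate block, removal of the 10 most abundant miRNAs, and omission of each library in turn; the fit without a library assumes that the remaining one varies like the other lines. Adjustment over all pairs together was added after seeing the data.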

Additional observations from a re-analysis of the deposited data

Results flagged for a closer look

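The log2 ratio of miR-205-5p to miR-203a-3p differed between lines in an exact permutation test (p = 9.62e-05, the smallest that 10395 pairings can give). It was 3.14 and 1.96 in the Car-1 libraries and lay between -1.41 (Hutu80 replicate 1) and -6.72 (RCM-1 replicate 2) in the other 10. Counts of different sequences are not calibrated to molecules, so the sign of the ratio was not tested. Ratios of other miRNAs were not tested either, and 68.2% of all tested miRNAs differed across the lines in edgeR's F-test.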

How the results depend on the processing

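Both miRNAs passed across the lines in all 9 other settings and in all 12 fits without a library, with adjusted p of at most 1.77e-07 for miR-205-5p and 6.42e-10 for miR-203a-3p. The number of pairs passed ran from 9 to 12 of 15 for miR-205-5p and from 10 to 12 for miR-203a-3p. No called difference changed sign. Of the pairs near the threshold, Hutu80 over MDST8 in miR-205-5p lost its call with no filter (adjusted p = 0.225), in limma-voom (0.127) and without the 10 most abundant miRNAs (0.0595), and HT55 over MDST8 in limma-voom (0.121). Hutu80 over RCM-1 in miR-205-5p passed with library totals (0.0146) and in limma-trend (0.0143), as did Hutu80 over MDST8 in miR-203a-3p (0.0148 and 0.00812). Car-1 over Hutu80 in miR-203a-3p passed in 7 of 10 settings, with adjusted p from 0.00183 with no filter to 0.19 over all 10. In each of these the cause was not tested. Against TMM, library totals shift every difference of Car-1 over SW1116 by 1.09 on the log2 scale: miR-205-5p was then 3.83 higher in Car-1, and miR-203a-3p 1.85 higher in SW1116 than in Car-1. With the same totals miR-203a-3p was 2.33 higher in HT55 and 2.35 higher in RCM-1 than in Car-1, and 2.95 higher in SW1116 than in Hutu80. The differences of 0.03 to 0.10 among neighbours changed sign in some settings, and none of them passed.

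The replicate numbers shared by the lines were not taken to pair the libraries, a choice that the checks made do not settle. Deviations from the line means correlated above 0.1 in 4 of 15 pairs of lines (-0.11 to 0.25). Most libraries (10 of 12) correlated best with a library of their own number. They come in mirrored pairs, since the 2 deviations of a line are opposite. With the replicate block, 223 miRNAs passed across lines, against 217 without it, and the pairs passed stayed at 11 for miR-205-5p and 10 for miR-203a-3p. For the ratio, a pseudocount of 1 or 5 and absolute differences gave the same exact p of 9.62e-05. Depth limits what can be said of miR-205-5p in the 4 low lines, where a library held 9 to 33 counts of it.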
